A study of Homo sapiens with 4 samples.

Results

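Genes of cholesterol and fatty acid synthesis were followed in knockout (KO) clones of A2780s, an established human epithelial ovarian cancer (EOC) cell line. The genes were taken by name: every non-control probe of the arrays that carried the name of 1 of 35 enzymes and regulators of these pathways was used, which gave 58 probes. The 35 genes, of 29123 named genes on the arrays, comprised 16 sterol enzymes, 6 regulators and transport proteins and 13 fatty acid enzymes. All 35 were well above background in both channels on all 4 arrays and none was saturated, so that none was lost to the filter on dim probes, which left 27223 genes for the tests.

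Total RNA of each KO clone was hybridized on an Agilent 2-colour array of its own against RNA of Ctrl, a mock-transfected A2780s clone. The labels and methods give 2 clones as GALNT3 KO, made with CRISPR/Cas9 and a homology-directed repair plasmid, and 2 clones as GALNT3/T6 KO, made from GALNT3 KO clones with shRNA against GALNT6 in a puromycin vector. GALNT3 and GALNT6 encode enzymes that start mucin-type O-glycosylation. Ctrl is a clone by its label, and whether the same Ctrl RNA served both groups is not stated. Each KO array stands for 1 clone. The GALNT3 KO clones were selected with puromycin too, but the shRNA vector with its own round of selection occurs in 1 group only. An effect of clone selection or transduction and an effect of the gene therefore cannot be told apart. The labels give Cy3 for Ctrl and Cy5 for the KO clone on each array, so dyes were not swapped; the methods also speak of a reversed colour for Ctrl, and the direction here rests on the labels. All 4 arrays lay on 1 slide, and their small number limits the precision. No Ctrl sample was hybridized against Ctrl, so the spread of Ctrl is not part of any test.

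The check of the targeted genes went against 1 label. GALNT3 had log2 ratios (KO over Ctrl) of 4.80 and 5.08 on the 2 arrays that carry the GALNT3/T6 KO label. On both GALNT3 KO arrays neither the Ctrl nor the KO signal of its probe stood well above background, so that no loss of GALNT3 could be read there and this label could not be checked. GALNT6 passed the test as lower in both groups. It read -0.47 and -0.38 on the GALNT3 KO arrays (adjusted p = 0.0446) and -0.66 and -0.69 on the others (adjusted p = 0.00335). Its probe was dim, with Ctrl signals of 7.66 to 8.09 on the log2 scale and lower KO signals, so the size of these ratios is uncertain. By Western blot the paper reports more GALNT6 protein in GALNT3 KO clones, opposite to the RNA ratios here, and its loss in GALNT3/T6 KO clones. Because GALNT3 went against the label, the 2 arrays with the high GALNT3 are called the GALNT3/T6-labelled arrays. Where the GALNT3 probe lies relative to the edited site was not analysed here. Of 9 carcinoma markers, 8 were well above background in the Ctrl channel on all 4 arrays, but so were 5 of 6 markers of immune, endothelial and stromal cells, so that this mark is a lenient one, with PECAM1 below it throughout. On the GALNT3/T6-labelled arrays 7 of the 9 carcinoma markers passed the test as higher, with mean log2 ratios of the list between 0.06 and 5.68, against 0 of 9 and a range of -0.22 to 0.59 on the GALNT3 KO arrays. The summed carcinoma signal (log2) of the Ctrl channel also stood higher there, at 15.52 and 15.08 against 13.15 and 13.02, and that of the KO channel was 19.86 and 19.77 against 13.48 and 13.28. Of 3 mesenchymal markers, 2 were higher and 1 was lower on the GALNT3/T6-labelled arrays and 1 was higher on the GALNT3 KO arrays. VIM read -2.84 and -1.87 (adjusted p = 0.00206) and, on the GALNT3 KO arrays, 1.11 and 1.12 (adjusted p = 0.0529). CDH2 had means of 2.54 in both groups, and FN1 was higher, at 3.21 and 4.17, with a probe not well above background on the GALNT3 KO arrays. The summed mesenchymal KO signal was 16.39 and 17.40 against 18.42 and 18.71, and that of Ctrl 19.12 and 19.11 against 17.29 and 17.58. Among the markers of other cell types, 1 of 5 tested was higher and 2 were lower on the GALNT3/T6-labelled arrays, with summed KO signals of 11.31 and 11.35 against 10.87 and 11.14, and 1 of 5, LUM, was lower on the GALNT3 KO arrays, at -1.12 and -1.02. The part of these differences in the lipid genes was not tested.

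Cells make cholesterol from acetyl-CoA through mevalonate, isoprenoids, squalene and lanosterol. The transcription factors SREBP-1 and SREBP-2 control the enzymes of both pathways. SREBPs are held in the endoplasmic reticulum by INSIG proteins, which bind the escort protein SCAP when sterols are plentiful, and are released to the Golgi and cut when sterols are scarce. SREBP-2 is best known for the sterol genes and SREBP-1 for the fatty acid genes, and INSIG1 and both SREBF genes are themselves targets.

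SREBPs bind sterol regulatory elements, usually beside sites for NF-Y (CCAAT) and Sp1 (GGGCGG). Promoter sequences (RefSeq, GRCh38.p14, 250 bases before to 50 bases after the start) matched 31 of the 35 genes, with 42 promoters in all; ACAT2, FDFT1, FASN and SQLE had no entry. The letters TCACNCCAC, searched like the others on both strands, occurred in 1 of the 42, that of SREBF2, and in 1.13% of all 35116 promoters. CCAAT occurred in 26 of the 42 (61.9%), with 34.6% of all promoters, and in 12 of 17 promoters of the sterol enzymes. GGGCGG was found in 36 of the 42 (85.7%), with 45% of all promoters. Read on the other strand, CCAAT can overlap GGGCGG by its last 2 letters, and such matches were counted under both. In SREBF2 the TCACNCCAC and CCAAT matches did not overlap. A match describes the letters only. Shown are the 180 bases before the start of 5 genes that recur in the results and were chosen after their values were seen, 5′ to 3′ along the gene, with TCACNCCAC and CCAAT of either strand in capitals: SREBF2 for its match, INSIG1 and MVK as genes with opposite signs in the groups, and MVD and FDPS as sterol enzymes that were lower.
SREBF2: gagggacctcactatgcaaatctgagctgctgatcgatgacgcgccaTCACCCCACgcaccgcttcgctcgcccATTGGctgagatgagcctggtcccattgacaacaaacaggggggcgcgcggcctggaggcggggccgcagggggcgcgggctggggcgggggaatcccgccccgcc
INSIG1: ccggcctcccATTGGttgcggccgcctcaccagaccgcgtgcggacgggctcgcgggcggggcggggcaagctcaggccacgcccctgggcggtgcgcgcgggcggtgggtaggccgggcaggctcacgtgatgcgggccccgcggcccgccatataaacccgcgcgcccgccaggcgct
MVK: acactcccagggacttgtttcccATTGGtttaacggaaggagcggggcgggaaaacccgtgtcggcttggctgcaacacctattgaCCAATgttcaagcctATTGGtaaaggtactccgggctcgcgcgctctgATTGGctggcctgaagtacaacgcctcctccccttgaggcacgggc
MVD: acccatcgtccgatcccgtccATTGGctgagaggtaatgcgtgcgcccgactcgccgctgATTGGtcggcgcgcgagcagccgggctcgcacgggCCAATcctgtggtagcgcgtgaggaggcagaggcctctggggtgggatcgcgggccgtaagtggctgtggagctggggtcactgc
FDPS: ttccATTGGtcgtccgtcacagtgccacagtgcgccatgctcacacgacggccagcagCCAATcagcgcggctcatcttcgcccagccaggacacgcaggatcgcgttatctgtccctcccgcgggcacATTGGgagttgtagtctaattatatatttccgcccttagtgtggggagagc
These lie at chr22:41832925-41833104 (plus strand), chr7:155297698-155297877 (plus strand), chr12:109573614-109573793 (plus strand), chr16:88663092-88663271 (minus strand) and chr1:155308686-155308865 (plus strand). MVK held 4 CCAAT matches in this stretch, MVD and FDPS 3 each, and INSIG1 and SREBF2 1 each. On the GALNT3/T6-labelled arrays MVK was higher and MVD and FDPS were lower, but these genes were chosen for their directions. Whether CCAAT matches went with direction was not tested.

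The first comparison set the GALNT3 KO arrays against Ctrl. On the GALNT3 KO arrays 9 of 16 sterol enzymes were lower by the test (limma, Benjamini-Hochberg adjusted p at most 0.05), and the median log2 ratio of the 16 was -0.53, whereas the median of all genes was 0.02. Of the 35 genes 12 were lower (34.3%), beside 6.34% of all genes tested, and 1 was higher, beside 4.69%. The regulators had 2 lower and 1 higher of 6, with a median of -0.39, and the fatty acid enzymes 1 lower of 13, with a median of -0.24. All 16 sterol enzymes were below 0 in clone 2, and 15 of 16 in clone 1, as were 47.4% and 48.4% of all genes. These calls depended on the setting, as did those over all genes. With Agilent's processed log ratio 3 of the 35 were lower, beside 1.42% of all genes, and with the replicate number as a block 0 (limma, with 19 of the 35 at an unadjusted p at most 0.05), beside 0.191%. Without GALNT3 KO clone 1 or clone 2, where the remaining array is assumed to vary like the other group, 0 of the 35 and 0 of all genes were lower (14 and 11 of the 35 at an unadjusted p at most 0.05). With only the GALNT3 KO arrays in the fit 20 of the 35 were lower, beside 17.8% of all genes.

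The second comparison set the GALNT3/T6-labelled arrays against Ctrl. Here 12 of 16 sterol enzymes were lower and 2 were higher, with a median of -0.81, beside 0.03 over all genes. Over the 35 genes 19 were lower (54.3%), beside 23.1% of all genes tested, and 10 were higher (28.6%), beside 24.8%, so that the share of higher genes was near the background. The regulators fell into 3 higher and 3 lower, and the fatty acid enzymes into 5 higher and 4 lower, with medians of 0.09 and 0.07. With Agilent's log ratio the median of the regulators was -0.25. Calls of 17 of the 29 genes held in all 13 alternatives other than the methods' t-test, which the paper names for other assays. The number of higher genes was 6 with median centring in place of loess, beside 18% of all genes, and 4 when only the arrays of this group, or 1 GALNT3 KO clone less, entered the fit, beside 14.6%.

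**Figure D1:**
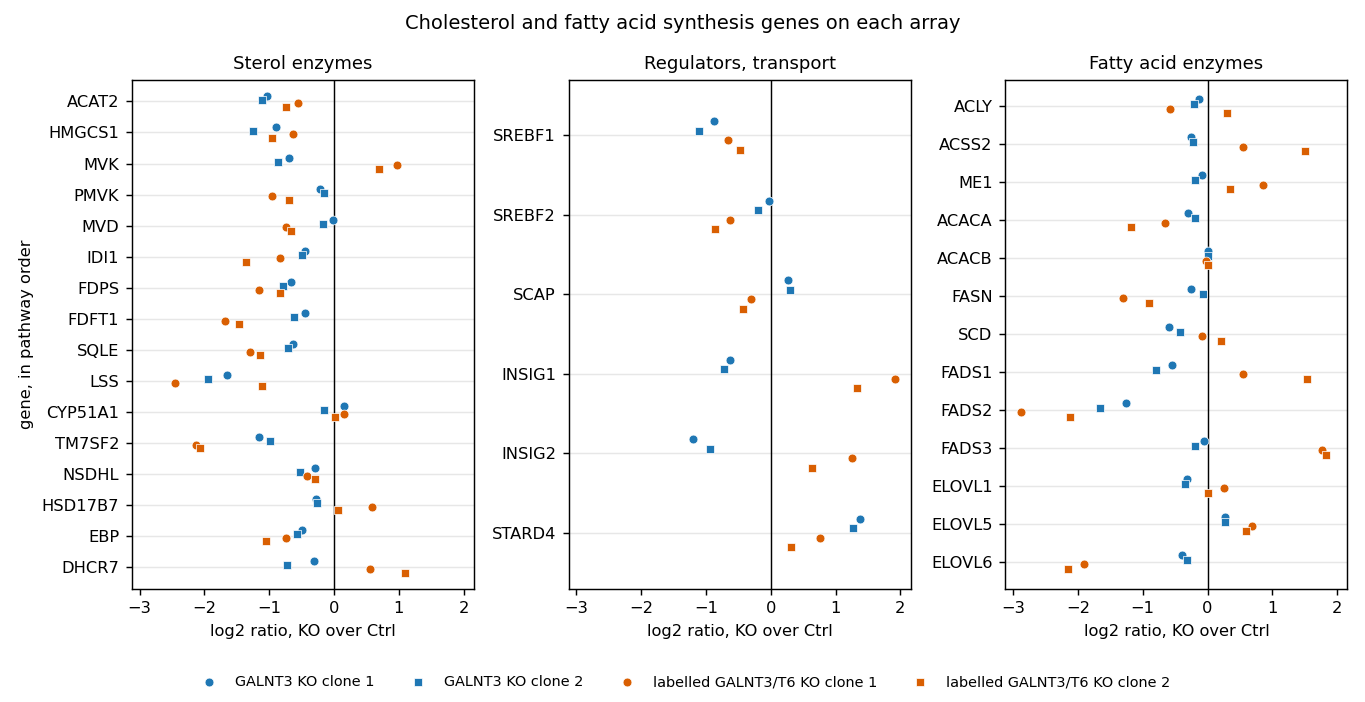
Log2 ratios of KO over Ctrl (x axis) of the 35 genes (y axis, in pathway order) in 3 panels; blue marks GALNT3 KO, orange the GALNT3/T6-labelled arrays, circles clone 1 and squares clone 2. In the sterol panel most points lie left of 0, with MVK, DHCR7, HSD17B7 and CYP51A1 right of it on the GALNT3/T6-labelled arrays, where the regulators and fatty acid enzymes spread to both sides.

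Comparing the groups with each other in the same model asked which genes differed between them. Of the 35 genes 6 were higher on the GALNT3/T6-labelled arrays (17.1%), beside 11.8% of all genes tested, and 10 were lower (28.6%), beside 11.8%. By class, these were 2 higher and 5 lower sterol enzymes, 2 higher and 3 lower regulators, and 2 higher and 2 lower fatty acid enzymes. The widest differences were those of INSIG1, INSIG2, FADS3, FADS1 and MVK in 1 direction and of ELOVL6 in the other. Both groups were set against Ctrl, whose channel differed little between them for these genes: leaving out FADS3, the mean Ctrl signal of the other 34 genes differed by -0.40 to 0.17 on the log2 scale. The number of lower genes was 5 with median centring, beside 8.66% of all genes, and 4 with the replicate block, beside 8.13%. Without GALNT3 KO clone 1 it was 0 and without clone 2 also 0, beside 1.74% and 2.13% of all genes, and 1 gene was higher, beside 2.7% and 3.1%. Without clone 2 of the GALNT3/T6-labelled arrays the higher genes numbered 11, beside 15.5% of all genes. The difference of FADS3 alone held in all 12 alternatives other than the methods' t-test.

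**Figure D2:**
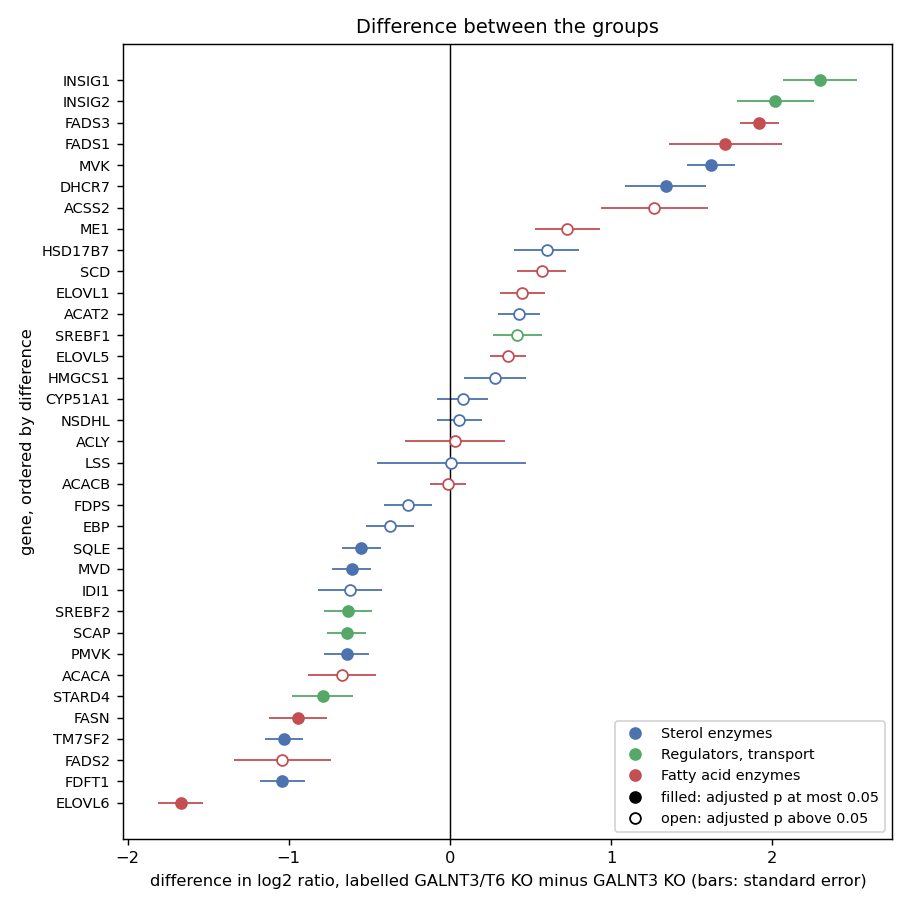
Difference in log2 ratio (x axis), GALNT3/T6-labelled arrays minus GALNT3 KO, of the 35 genes in order (y axis); points are estimates, bars their standard errors, filled points passed the test, and colours give the class. INSIG1 stood highest at 2.30 and ELOVL6 lowest at -1.67, and each class had filled points on both sides of 0.

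The sterol pathway opens with ACAT2, the thiolase that joins acetyl-CoA units. ACAT2 had log2 ratios of -1.04 and -1.11 on the GALNT3 KO arrays (2.11-fold lower, SE 0.09, adjusted p = 0.0139) and of -0.56 and -0.74 on the GALNT3/T6-labelled arrays (adjusted p = 0.00515). All 4 clones were low, and its second probe gave means of -0.83 and -0.70. HMGCS1, the synthase that makes HMG-CoA, read -0.89 and -1.25 in the GALNT3 KO clones (adjusted p = 0.0263) and -0.63 and -0.95 in the other pair (adjusted p = 0.00986). The 2 groups overlapped. Its other probe read -0.50 and -0.60 in the GALNT3 KO clones but 0.17 and 0.26 in the other pair, and with the mean of both probes the second call was lost (-0.29, adjusted p = 0.0578).

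Mevalonate is phosphorylated by MVK and PMVK and decarboxylated by MVD, and these 3 consecutive enzymes parted. MVK read -0.70 and -0.86 on the GALNT3 KO arrays (adjusted p = 0.0295) and 0.97 and 0.70 on the GALNT3/T6-labelled arrays (1.78-fold higher, SE 0.11, adjusted p = 0.00413). The difference between the groups was 1.62 (SE 0.15, adjusted p = 0.00322). Its other probe lay closer to 0, at -0.11 and -0.03 and at 0.37 and 0.20. PMVK read -0.22 and -0.16 in the GALNT3 KO clones and -0.96 and -0.70 in the others (adjusted p = 0.00326), and MVD -0.02 and -0.17 against -0.74 and -0.67 (adjusted p = 0.0036). In both genes the groups did not overlap, and the differences of -0.64 and -0.61 had adjusted p-values of 0.033 and 0.0267. With median centring both differences were lost (adjusted p = 0.151 and 0.0787), as with the replicate block (adjusted p = 0.0716 and 0.0821). With 2 clones a group, lack of overlap is a lenient mark here and below, and its share over all genes was not computed. MVK was therefore the one enzyme of the 3 that was higher where its neighbours in the pathway were lower.

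Of the enzymes of isoprenoid and squalene synthesis, 4 of 4 were lower on the GALNT3/T6-labelled arrays, beside 23.1% of all genes tested. In the GALNT3 KO clones 3 of 4 were lower, beside 6.34%, and these 3 calls were lost with Agilent's log ratio. IDI1, the isomerase that makes dimethylallyl pyrophosphate, read -0.45 and -0.49 (adjusted p = 0.0953, not called) and -0.83 and -1.35 (2.13-fold lower, adjusted p = 0.00447). FDPS, the farnesyl pyrophosphate synthase, had -0.67 and -0.79 (adjusted p = 0.0331) and -1.15 and -0.84 (adjusted p = 0.0026). FDFT1, the squalene synthase at the branch to sterols, went from -0.45 and -0.61 (adjusted p = 0.0448) in the GALNT3 KO clones to -1.68 and -1.46 (2.97-fold lower, SE 0.10, adjusted p = 0.00056) in the others, a difference of -1.04 (adjusted p = 0.00916). SQLE, the squalene epoxidase and an oxygen-requiring control point, read -0.63 and -0.71 (adjusted p = 0.0278) and -1.30 and -1.14 (2.33-fold lower, adjusted p = 0.000769). For FDFT1 and SQLE each clone on the GALNT3/T6-labelled arrays lay below each GALNT3 KO clone.

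LSS, which closes squalene epoxide to lanosterol, depended on the probe. The brightest of its 4 probes (hg19, chr21:47609043-47609102) read -1.65 and -1.94 in the GALNT3 KO clones (adjusted p = 0.0425) and -2.45 and -1.11 in the others (adjusted p = 0.0119), and LSS was the 1 gene of the 35 whose clones under the GALNT3/T6 KO label differed by more than 1 on the log2 scale. The other 3 probes gave group means of 0.17 and 0.42, -0.54 and -0.43, and 0.06 and 0.38. With the mean of all 4 probes neither group was called (-0.53, adjusted p = 0.109, and -0.35, adjusted p = 0.147). Whether LSS was lower thus cannot be said from these probes together.

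After lanosterol the enzymes again parted. CYP51A1, the lanosterol demethylase, was not called in either group, with values between -0.15 and 0.16 for the brightest probe. Its other probe read -0.17 and -0.55 in the GALNT3 KO clones and -0.26 and -0.14 in the others. TM7SF2, a sterol C14 reductase, read -1.15 and -0.99 (2.1-fold lower, adjusted p = 0.0136) and -2.13 and -2.07 (4.28-fold lower, SE 0.09, adjusted p = 0.000199), and the groups differed by -1.03 (adjusted p = 0.00637). Its second probe showed means of -0.47 and -0.97. NSDHL, which takes part in C4 demethylation, read -0.30 and -0.53 (adjusted p = 0.0636) and -0.42 and -0.29 (adjusted p = 0.0402), and with Agilent's own ratio the latter call was lost (adjusted p = 0.0614). HSD17B7 of the same step was not called, and its 3 probes ranged from -1.05 to -0.27 in the first group and from -0.31 to 0.32 in the second.

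EBP, the sterol isomerase, was lower in all 4 clones, at -0.49 and -0.57 (adjusted p = 0.0489) and -0.74 and -1.05 (adjusted p = 0.00334). DHCR7, the last reductase of the route through 7-dehydrocholesterol, showed opposite signs, with -0.31 and -0.73 in the GALNT3 KO clones (adjusted p = 0.115) and 0.56 and 1.09 under the GALNT3/T6 KO label (1.77-fold higher, adjusted p = 0.0186). The difference was 1.34 (SE 0.25, adjusted p = 0.0213). With median centring the higher call of DHCR7 was lost at an adjusted p of 0.0534. MVK and DHCR7 were the 2 sterol enzymes that passed the test as higher.

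Among the regulators, the genes of both SREBPs were lower where they passed the test. SREBF1 read -0.87 and -1.11 in the GALNT3 KO clones (1.99-fold lower, SE 0.10, adjusted p = 0.0205) and -0.66 and -0.48 in the others (adjusted p = 0.0118), with second-probe means of -1.06 and -0.99. SREBF2, whose promoter held the TCACNCCAC match shown above, read -0.03 and -0.20 (adjusted p = 0.461) and -0.63 and -0.86 (1.68-fold lower, adjusted p = 0.00512), a difference of -0.63 (adjusted p = 0.0396). For SREBF2 each clone under the GALNT3/T6 KO label lay below each GALNT3 KO clone, and its second probe had means of -0.48 and -0.85. SCAP, the escort, read 0.26 and 0.29 (adjusted p = 0.097) and -0.30 and -0.43 (adjusted p = 0.0233), with a difference of -0.64 (adjusted p = 0.0217). The replicate block raised the adjusted p of SCAP under the GALNT3/T6 KO label to 0.0675. With median centring the lower call of SREBF1 under that label was lost (adjusted p = 0.0837). So were the group differences of SREBF2 (adjusted p = 0.066) and SCAP (adjusted p = 0.0501).

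Both INSIG genes, whose proteins retain SCAP and the SREBPs, had opposite signs in the groups. INSIG1 read -0.63 and -0.72 in the GALNT3 KO clones (adjusted p = 0.0622, not called) and 1.92 and 1.33 in the others (3.09-fold higher, SE 0.16, adjusted p = 0.00187). Its difference of 2.30 (SE 0.23, adjusted p = 0.00365) was the widest among the 35 genes. The Ctrl signal of INSIG1 was alike, with means of 11.44 and 11.32, whereas the KO signal went from 10.76 to 12.94. INSIG2 had -1.20 and -0.94 (2.1-fold lower, adjusted p = 0.0358) and 1.25 and 0.64 (1.93-fold higher, adjusted p = 0.0117), a difference of 2.02 (adjusted p = 0.00649). The second INSIG2 probe repeated the first group, at -1.22 and -0.91, but not the second, at 0.17 and -0.35, and with the mean of both probes the higher call was lost at an adjusted p of 0.0844.

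STARD4, a carrier of cholesterol between membranes, was the 1 gene of the 35 that was higher in the GALNT3 KO clones, at 1.38 and 1.27 (2.5-fold higher, SE 0.13, adjusted p = 0.0196). In the other pair it read 0.76 and 0.31 (adjusted p = 0.0295), a call lost with Agilent's log ratio (0.19, adjusted p = 0.317), and the groups differed by -0.79 (adjusted p = 0.0448).

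**Figure D3:**
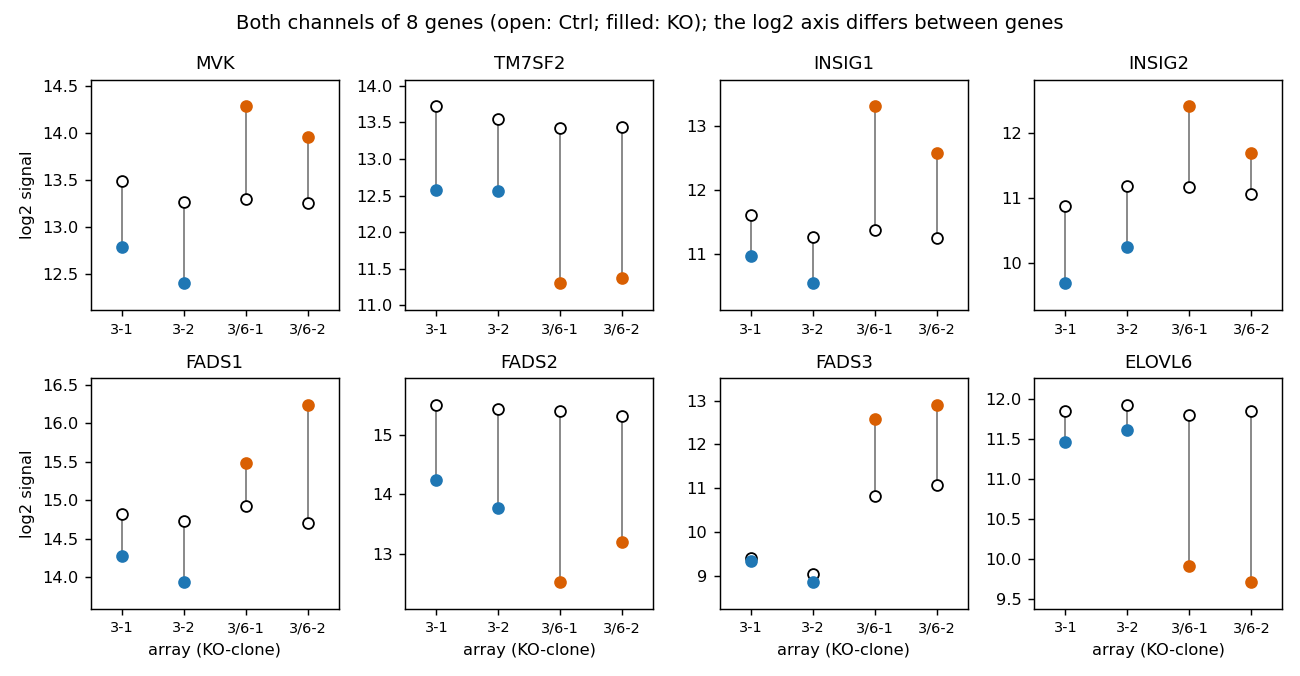
Log2 signals (y axis, which differs between panels) of the Ctrl channel (open) and the KO channel (filled) on the 4 arrays (x axis; 3 for GALNT3 KO, 3/6 for the GALNT3/T6 KO label, then the clone) for 8 genes. The Ctrl points lie nearly level across arrays in the other panels, but rise in FADS3, from means of 9.22 to 10.95.

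The fatty acid arm begins with the supply of acetyl-CoA and NADPH. ACLY, which splits citrate, read -0.13 and -0.21 in the GALNT3 KO clones and -0.58 and 0.30 in the others, and was not called. The second pair of ACLY clones lay on both sides of 0. ACSS2, which makes acetyl-CoA from acetate, read -0.26 and -0.23 (adjusted p = 0.488) and 0.55 and 1.51 (2.04-fold higher, adjusted p = 0.0231), and its other probe 3.36 and 2.11 on the latter arrays. The malic enzyme ME1 read -0.08 and -0.19 and then 0.85 and 0.34 (adjusted p = 0.0271). With median centring neither ACSS2 nor ME1 was called (adjusted p = 0.0685 and 0.0591).

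ACACA and FASN, which build the chain, were lower on the GALNT3/T6-labelled arrays. ACACA, the acetyl-CoA carboxylase that makes malonyl-CoA, read -0.30 and -0.20 in the GALNT3 KO clones (adjusted p = 0.283) and -0.65 and -1.18 in the others (1.89-fold lower, adjusted p = 0.00818). FASN, the fatty acid synthase, read -0.26 and -0.07 (adjusted p = 0.404) and -1.30 and -0.90 (2.14-fold lower, SE 0.13, adjusted p = 0.00316). The groups did not overlap for FASN, whose difference passed the test (-0.94, adjusted p = 0.0244). For ACACA they did not overlap with the brightest probe, but its other probe read -0.14 and -0.41 in the GALNT3 KO clones and -0.69 and -0.11 in the others, where they did. ACACB, the second carboxylase, lay between -0.02 and 0.01 on all arrays. Its signals were dim in both channels, at 7.27 to 7.73 on the log2 scale, so these ratios do not show that its expression was unchanged. The KO signal of FASN on the GALNT3/T6-labelled arrays was also dim, at 7.67 and 8.17.

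SCD, which makes oleate and palmitoleate, read -0.59 and -0.42 in the GALNT3 KO clones (adjusted p = 0.053) and -0.08 and 0.21 in the others (adjusted p = 0.643). Its 3 probes gave different answers in the second group, with means of 0.07, -0.96 and -0.33, and averaging them turned the value to -0.41 with an adjusted p of 0.0108. SCD was therefore below 0 with 2 of 3 probes and not with the brightest.

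The 3 fatty acid desaturases FADS1, FADS2 and FADS3 are neighbours on chromosome 11, with their brightest probes inside 75.5 kb (hg19, chr11:61569572-61645033). FADS1, the delta-5 desaturase, read -0.55 and -0.79 in the GALNT3 KO clones (adjusted p = 0.132) and 0.55 and 1.53 in the others (2.06-fold higher, adjusted p = 0.0247), a difference of 1.71 (SE 0.35, adjusted p = 0.0277). With only the arrays of the second group in the fit, the higher call of FADS1 was lost (adjusted p = 0.0886). The second FADS1 probe had means of -0.94 and 0.70. FADS2, the delta-6 desaturase, read -1.26 and -1.66 (2.75-fold lower, adjusted p = 0.0319) and -2.88 and -2.12 (5.65-fold lower, SE 0.21, adjusted p = 0.00124). The second FADS2 probe gave 0.21, 0.17, 0.19 and 0.05 on the same 4 arrays, so that the lower FADS2 rests on the brightest probe. The signs of FADS1 and FADS2 under the GALNT3/T6 KO label thus opposed each other with the brightest FADS2 probe but not with the second.

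FADS3 read -0.06 and -0.20 in the GALNT3 KO clones (adjusted p = 0.33) and 1.76 and 1.83 in the others (3.47-fold higher, SE 0.09, adjusted p = 0.000272). It differed from the other 34 genes in its Ctrl channel, which was brighter by 1.72 on the log2 scale on the GALNT3/T6-labelled arrays, while the KO channel was brighter by 3.65. The group difference of 1.92 (adjusted p = 0.00115) is therefore smaller than the difference of the KO channels alone, and the part of the Ctrl channel in it was not tested. Medians of the neighbouring genes within 5 Mb of each of the 35 genes lay between -0.28 and 0.25 in every group.

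Of the elongases, ELOVL6, which lengthens palmitate, stood apart. It read -0.39 and -0.32 in the GALNT3 KO clones (adjusted p = 0.0809) and -1.90 and -2.15 in the others (4.06-fold lower, SE 0.10, adjusted p = 0.000284), and its difference of -1.67 (SE 0.14, adjusted p = 0.00233) was the lowest of the 35 genes. The second ELOVL6 probe had means of -0.15 and -1.11. ELOVL5, which acts on polyunsaturated chains, read 0.27 on both arrays (adjusted p = 0.0905) and then 0.68 and 0.59 (1.55-fold higher, adjusted p = 0.00403), a call lost with Agilent's log ratio (0.16, adjusted p = 0.307). ELOVL1 was not called, with values between -0.34 and 0.25.

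Because several of these genes have more than 1 probe, the probes were compared within each gene. For 18 genes with 41 probes in all, all probes of a gene had 1 sign in 15 on the GALNT3 KO arrays and in 11 on the GALNT3/T6-labelled arrays. LSS, FADS2 and CYP51A1 had probes of both signs in both groups, and HMGCS1, HSD17B7, INSIG2 and SCD in the second alone.

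**Figure D4:**
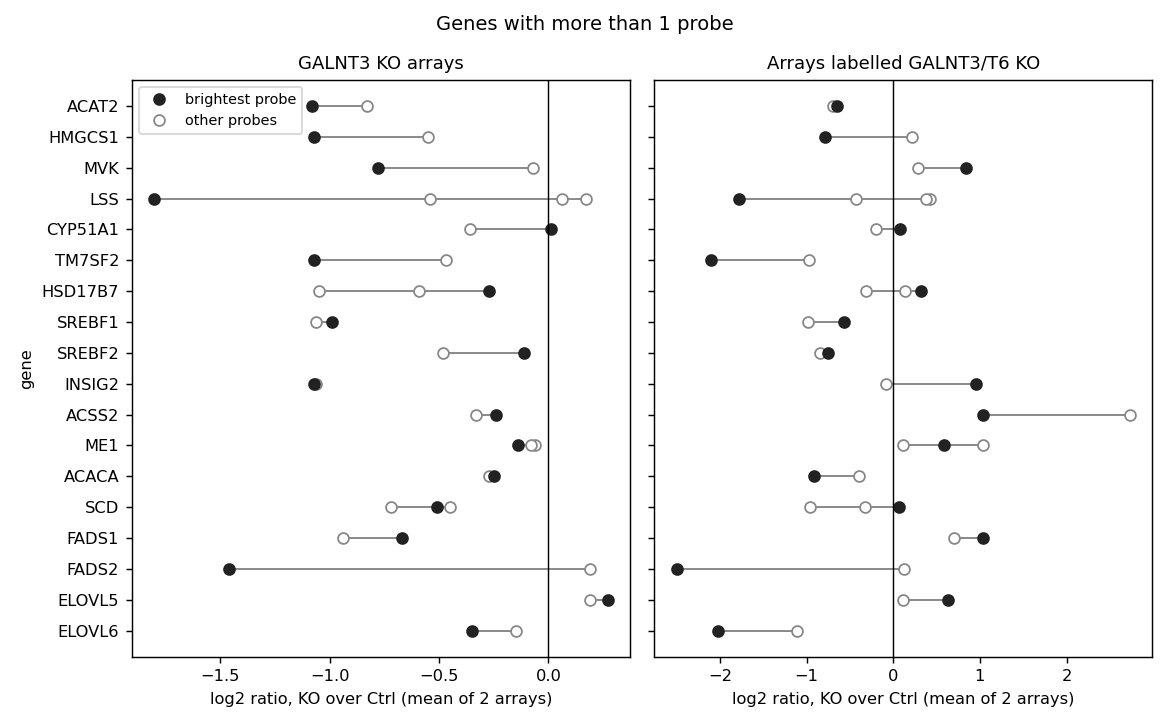
Mean log2 ratio of KO over Ctrl (x axis) for each probe of the 18 genes with more than 1 probe (y axis), with the brightest probe filled and the others open, joined by a line per gene. The lines of LSS and FADS2 cross 0 in both panels, whereas those of TM7SF2, ELOVL6, SREBF1 and SREBF2 stay on 1 side.

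A list of 33 other genes of sterol and fatty acid metabolism served for comparison. In the GALNT3 KO clones 1 was higher (3.03%) and 3 were lower (9.09%), beside 4.69% and 6.34% of all genes, with a median of -0.11. On the GALNT3/T6-labelled arrays 10 were higher (30.3%) and 12 were lower (36.4%), beside 24.8% and 23.1%, with a median of -0.04. Between the groups 8 were higher (24.2%) and 4 were lower (12.1%), beside 11.8% in each direction. Changes of at least 2-fold in both clones were seen for 8 of these genes, all under the GALNT3/T6 KO label. In the sterol arm, SC5D, the sterol C5 desaturase that acts just before DHCR7, read 2.39 and 1.86 (adjusted p = 0.000705), though 1 of its 3 probes had a mean of -0.21. LBR, the second sterol C14 reductase beside TM7SF2, read -1.49 and -1.70 (adjusted p = 0.000541), after -0.92 and -1.09 in the GALNT3 KO clones (adjusted p = 0.0194).

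NPC2, which binds cholesterol in lysosomes, read 2.11 and 2.76 (adjusted p = 0.000788), and ABCA1, a cholesterol exporter, -1.15 and -1.11 (adjusted p = 0.00312), with means of -0.32 and 0.03 for its other 2 probes. In the fatty acid arm, ELOVL7 read 3.40 and 3.66 (11.5-fold higher, adjusted p = 0.000101), with a mean of 1.18 for its other probe and a brightest probe that stood below the background mark on the array of GALNT3 KO clone 1, and HSD17B12, the ketoacyl reductase of elongation, 2.92 and 2.62 (adjusted p = 0.000171), with means of 0.11 and 3.49 for its other probes. ELOVL4, which makes very long chains, read -1.82 and -2.20 (adjusted p = 0.000742). MLYCD, which removes malonyl-CoA, read -1.17 and -1.43 (adjusted p = 0.0011), with means of -0.73 and 0.11 for its other probes. Of the elongases in this list, ELOVL7 and ELOVL2 (0.90 and 0.54, adjusted p = 0.00759) were higher, and ELOVL4 and ELOVL3 (-0.53 and -0.40, adjusted p = 0.0137) were lower. ELOVL2 was dim, with Ctrl signals of 7.46 to 7.84 on the log2 scale.

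Clones of a group differed in ways that touch single values. The median distance between the 2 clones over the 35 genes was 0.13 on the log2 scale in the GALNT3 KO group and 0.28 under the GALNT3/T6 KO label, beside 0.14 and 0.17 over all genes. LSS, ACSS2, FADS1 and ACLY, whose clones lay far apart in the second group, had the largest standard errors, of 0.22 to 0.33.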

How the data were processed

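The authors extracted spot intensities with Agilent Feature Extraction (version 8.5.1.1 by the labels, 10.7.3.1 by the file headers) and deposited them with log10 ratios of Cy5 over Cy3. Here the deposited mean intensities were background-corrected (normexp, offset 50) and normalized by loess within arrays (limma 3.58.1, R 4.3.3). Results are given as log2 of KO over Ctrl. For each gene the brightest probe was used that stood well above background on both arrays of at least 1 group, in either channel. The arrays were fitted in 1 model with a mean per group, p-values were adjusted over all 27223 genes, and a gene was called at an adjusted p at most 0.05. The clones are the replicates.

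Each array held 45015 spots, of which 1639 were controls; 86.9% to 93.8% of the others were well above background. Same-numbered clones deviated from their group means with a correlation of -0.239 (2 pairs), so the numbers were not taken to pair clones.

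The 35 genes, the 33 further genes and the markers were chosen with earlier results of these data known. Values per array are given for genes called in any comparison and for ACLY and SCD, other genes by range, and further genes where called with at least 2-fold changes in both clones of a group. ELOVL2 and ELOVL3 were below that change and were added beside the other elongases. Alternatives were Agilent's log ratio, the deposited table, median centring, no background correction, no filter on dim probes, the mean of all probes, only the arrays of a group, the replicate block, leaving out each array and the methods' t-test. The paper names a t-test for Western blots and functional assays and no test for the arrays. Its use on the arrays, gene by gene and with adjusted p-values, was a choice made here.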

Additional observations from a re-analysis of the deposited data

Results flagged for a closer look

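Effects of the groups against Ctrl differed, by the contrast between groups in the model, for 16 genes. Of the 35 genes 6 were higher (17.1%) and 10 were lower (28.6%), beside 11.8% of all genes tested in each direction. As given above, only the difference of FADS3 held in every alternative other than the methods' t-test. The values are log2 differences, GALNT3/T6-labelled arrays minus GALNT3 KO. In the sterol pathway the genes were MVK (1.62), DHCR7 (1.34), PMVK (-0.64), MVD (-0.61), FDFT1 (-1.04), SQLE (-0.55) and TM7SF2 (-1.03). Among the regulators they were INSIG1 (2.30), INSIG2 (2.02), SREBF2 (-0.63), SCAP (-0.64) and STARD4 (-0.79). In the fatty acid arm they were FADS1 (1.71), FADS3 (1.92), FASN (-0.94) and ELOVL6 (-1.67). The groups held 2 arrays each, too few to look for outlying arrays.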

How the results depend on the processing

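Removing the background correction or the filter on dim probes changed no call of the 35 genes. On the GALNT3 KO arrays the 12 lower genes became 3 with Agilent's log ratio and with the deposited table, 0 with the replicate block, 0 to 20 on leaving out 1 array, 20 with the arrays of that group alone and 0 with the methods' t-test; the 1 higher gene became 0 with the block and with the t-test and 0 to 1 on leaving out 1 array. Under the GALNT3/T6 KO label the 10 higher genes became 6 with median centring, 4 with the arrays of that group alone, 4 to 11 on leaving out 1 array and 0 with the t-test, which also left 0 of the 19 lower genes. Between the groups the 6 higher genes became 1 to 11 on leaving out 1 array and 0 with the t-test, and the 10 lower genes became 5 with median centring, 4 with the replicate block, 0 to 13 on leaving out 1 array and 0 with the t-test. Over all genes the methods' t-test called 0% as lower in the GALNT3 KO comparison and 0.00367% under the GALNT3/T6 KO label. At the unadjusted threshold it gave 12, 7 and 14 of the 35 genes in the 3 comparisons. Without GALNT3 KO clone 1 or clone 2 alike, all calls of the GALNT3 KO comparison were lost. The crossed pairing was added after seeing the data. For GALNT3 KO it gave 12 lower and 1 higher genes, beside 8.18% and 5.34% of all genes. Under the GALNT3/T6 KO label it gave 19 lower and 10 higher, beside 24.4% and 25.4%. Between the groups it gave 11 lower and 7 higher, beside 13.9% and 13%. For most other settings the shares of all genes are given with each comparison above.

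In the GALNT3 KO clones the median of the sterol enzymes was -0.73 with median centring, that of the regulators -0.63, and that of the fatty acid enzymes -0.39 with median centring, -0.04 with Agilent's log ratio and the deposited table, and -0.26 to -0.21 on leaving out 1 array. Under the GALNT3/T6 KO label the median of the sterol enzymes was -0.93 with Agilent's log ratio and the deposited table, -0.88 with median centring, -0.69 with the mean of all probes and -0.81 to -0.74 on leaving out 1 array, and that of the regulators -0.25 with Agilent's log ratio and the deposited table. The median difference of the fatty acid enzymes was 0.05 with Agilent's log ratio and the deposited table and 0.14 with the mean of all probes, and that of the sterol enzymes -0.29 to -0.02 on leaving out 1 array. SCD turned to -0.41 with the mean of all probes, and the difference of LSS to -0.66 without clone 2 of the GALNT3/T6-labelled arrays and to 0.68 without clone 1. The cause was not tested.

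With 2 arrays per group the test leans on the spread shared over genes and groups, and a missed threshold does not show that values were equal.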
